A study of Homo sapiens with 9 samples.

Results

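The long intergenic non-coding RNA (lincRNA) genes expressed in MDA-MB-231 cells were described across 3 culture conditions. A gene was selected on 2 criteria: its symbol began with LINC followed by a number, and its mean over the 9 samples reached 0.5 CPM (the count of a gene scaled to the file total). This gave 171 genes, with 170 distinct symbols, of 60664 genes in the files and of 2271 LINC genes listed. Of the LINC genes left out, 947 had counts but a lower mean and 1153 had no count in any sample. The level chose the genes, so levels are given as a description. The rule used no difference between conditions directly, but near the threshold a high level in 1 group could carry a gene over it.

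MDA-MB-231 is an established human triple-negative breast cancer line with mesenchymal features. RNA was taken at day 6 from 3 groups of 3 samples each, all labelled as this line. SC-0.77cP cells carried a scramble (non-targeting) RNA and were kept in medium of 0.77 cP. SC-8cP cells carried the same scramble RNA in medium thickened with methylcellulose to 8 cP. The shTRPV4-8cP cells stably expressed a short hairpin RNA against TRPV4, a calcium-permeable cation channel, and were also kept at 8 cP. A shTRPV4 group at 0.77 cP was not analysed here, so the effect of the hairpin was measured at the higher viscosity alone. Each pair of comparisons shares the samples of 1 group, so their values are set side by side and are not independent. Nothing in the labels says that replicates came from separate cultures, so p-values measure the spread between these samples, which may be technical.

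LincRNAs are long transcripts that lie between protein-coding genes and lack a long open reading frame, although a few encode micropeptides. Most are transcribed by RNA polymerase II, spliced and polyadenylated. They are usually less abundant and more restricted to single cell types than mRNAs, and many stay in the nucleus. Some act in cis on a neighbouring gene, some bind proteins or microRNAs, and for most no function is known. LINC symbols are numbers given by the nomenclature committee to lincRNAs without a functional name. The libraries were made from poly(A) RNA, so lincRNAs without a poly(A) tail were not captured well.

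Levels per sample and group means are CPM on TMM-scaled library sizes (a scaling that allows for differences in RNA composition), while means over the 9 samples, the threshold and levels per kb use the file totals. Depth ranged from 64571681 to 103518036 counts per sample, so the selection threshold corresponded to between 32.3 and 51.8 counts. TRPV4 was low throughout, at 0.424 to 0.525 CPM in the SC-0.77cP samples and 0.264 to 0.647 CPM in the SC-8cP samples, against 0.0128 to 0.144 CPM in the shTRPV4-8cP samples (1 to 13 counts). The fall with the hairpin was 2.51 ± 0.49 on the log2 scale (SE, n = 3 per group; edgeR adjusted p = 0.00219). The 5 markers expected of the line (VIM, CD44, AXL, KRT8, KRT18) were all at 285 CPM or more, and ESR1, PGR and CDH1 did not exceed 0.133 CPM. The summed level of 8 markers of leukocytes, endothelium and fibroblasts was 10.3 to 12.5 CPM at SC-0.77cP, 7.70 to 8.21 CPM at SC-8cP and 6.72 to 6.84 CPM in shTRPV4-8cP. PECAM1 and COL1A1 made up nearly all of it, while CDH5, DCN, CD3E and ITGAM stayed at or below 0.0664 CPM. Mitochondrial genes took 2.04% to 2.58% of counts in the SC samples and 3.28% to 3.40% in the shTRPV4-8cP samples. The part of these differences in the lincRNA results was not tested.

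Promoter windows are shown for 5 of the genes whose changes are described further on, 3 because they hold a binding motif of AP-1 (the JUN and FOS dimer that responds to growth and stress signals), 1 because it lies beside FOXA2, and 1 because it holds the starts of a pair of lincRNAs. Each window runs from 250 bases before to 50 bases after the RefSeq start in GRCh38.p14, 5′ to 3′ on the strand of the gene. In the first 4 windows capitals mark motif matches on either strand. LINC02725 (chr11:128095509-128095808, plus strand) holds 2 AP-1 matches (TGAATCA and TGACTCA) and 2 matches to the TEAD motif GGAATG. LINC02009 (chr3:46423618-46423917, minus strand) holds 1 AP-1 match and 1 E-box (CACGTG). LINC01929 (chr18:55124257-55124556, minus strand) holds 1 AP-1 match, and LINC00261 (chr20:22578593-22578892, minus strand) holds a TATA box on the opposite strand. In the window of LINC03014 (chr7:149468-149767, plus strand) capitals mark the 21 bases between its annotated start and that of LINC03015, which runs the other way.
LINC02725: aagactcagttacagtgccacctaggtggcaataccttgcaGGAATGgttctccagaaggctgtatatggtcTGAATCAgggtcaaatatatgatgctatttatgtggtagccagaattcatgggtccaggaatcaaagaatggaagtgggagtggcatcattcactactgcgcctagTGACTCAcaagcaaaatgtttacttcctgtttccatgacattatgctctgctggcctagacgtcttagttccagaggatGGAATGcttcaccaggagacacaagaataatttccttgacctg
LINC02009: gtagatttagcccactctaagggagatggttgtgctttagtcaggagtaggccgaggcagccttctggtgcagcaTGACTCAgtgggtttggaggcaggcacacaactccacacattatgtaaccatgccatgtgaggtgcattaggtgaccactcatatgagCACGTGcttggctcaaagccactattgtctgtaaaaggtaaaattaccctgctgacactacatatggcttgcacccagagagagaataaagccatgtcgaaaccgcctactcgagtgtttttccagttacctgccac
LINC01929: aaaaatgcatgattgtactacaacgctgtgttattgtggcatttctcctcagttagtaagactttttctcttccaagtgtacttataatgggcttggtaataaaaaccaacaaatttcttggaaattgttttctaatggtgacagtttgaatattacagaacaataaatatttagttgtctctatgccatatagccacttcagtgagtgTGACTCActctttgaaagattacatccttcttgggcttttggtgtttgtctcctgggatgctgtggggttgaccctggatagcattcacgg
LINC00261: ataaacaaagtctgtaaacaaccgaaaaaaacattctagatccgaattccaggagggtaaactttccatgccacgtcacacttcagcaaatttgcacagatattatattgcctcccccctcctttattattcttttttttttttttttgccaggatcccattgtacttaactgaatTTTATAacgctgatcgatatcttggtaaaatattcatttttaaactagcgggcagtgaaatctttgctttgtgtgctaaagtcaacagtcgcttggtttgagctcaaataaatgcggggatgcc
LINC03014: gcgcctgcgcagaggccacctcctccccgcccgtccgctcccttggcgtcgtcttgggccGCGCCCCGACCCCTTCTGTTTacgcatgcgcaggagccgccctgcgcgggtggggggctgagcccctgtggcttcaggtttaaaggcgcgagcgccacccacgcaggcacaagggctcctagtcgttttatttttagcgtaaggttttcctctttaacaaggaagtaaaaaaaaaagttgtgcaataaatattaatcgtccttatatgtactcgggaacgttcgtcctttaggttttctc

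A window was matched by symbol and strand for 124 of the 171 genes. The RefSeq start nearest the GENCODE 44 start was used, but some lay far from it, up to 622748 bases in LINC01505. Among windows with the AP-1 motif, that of LINC01358 lay 86833 bases away and that of LINC00963 11714. The part of such windows in the motif shares was not tested. Their median GC content was 58.0%, beside 58.7% over the 35116 windows of all genes. The AP-1 motif TGANTCA was found in 18 of the 124 windows (14.5%) and in 7.71% of all windows. The cyclic AMP response element TGACGTCA was found in 5 windows (4.03%), beside 1.85% of all. The other motifs were the TEAD site GGAATG in 12.9% of lincRNA windows and 14.0% of all, the E-box CACGTG in 4.03% and 7.26%, and the TATA box TATAAA in 9.68% and 11.5%. Both strands were searched, and no motif contains another. Of the 22 genes with a window that were called for the hairpin (by the test given further on), 3 held the AP-1 motif, as did 15 of the other 102. The motif counts are a description of letters and not of binding.

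The 171 genes took 0.0735% to 0.0785% of all counts in every sample. They lay on 23 chromosomes, and 162 carried the GENCODE 44 lncRNA biotype while 9 carried a pseudogene biotype. By position against protein-coding genes, 131 were intergenic, 15 lay just downstream of a gene on its strand and 9 were divergent from the nearest start. A further 9 were antisense to a gene and 7 overlapped a gene on the same strand, whether or not its start was the nearest. The median distance to the nearest protein-coding start was 59398 bases. Exons were free of any other annotated gene in 96 genes, shared bases on the same strand with another gene in 26 and on the opposite strand in 62. The strand setting of the counting is not given in the sources used here, so reads of overlapping exons could not be assigned with certainty for these genes.

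Mean levels ran from 0.506 to 47.4 CPM with a median of 1.64 CPM. The 98 genes below 2 CPM, 54 from 2 to under 10 CPM and 19 at 10 CPM or more form 3 bands used below, since depth limits what can be called. The 10 most abundant genes held 37.0% of the counts of all 171. LINC00205 was highest, with 52.4 ± 2.10 CPM at SC-0.77cP, 48.3 ± 2.23 CPM at SC-8cP and 41.4 ± 2.18 CPM in shTRPV4-8cP (SD, n = 3). It starts 137 bases from POFUT2, which runs the other way. Just inside the threshold were LINC01572, LINC01385 and LINC01275 at 0.506, 0.509 and 0.510 CPM, and just outside LINC01311, LINC01356 and LINC00589 at 0.485, 0.472 and 0.471 CPM. The group means of 18 selected genes fell below 0.5 CPM in at least 1 condition, 4 reached it in 1 condition alone (LINC00997, LINC02966 and LINC01572 in shTRPV4-8cP, LINC01770 in SC-0.77cP), and 13 LINC genes that were not selected reached it in at least 1.

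Levels of different genes were compared per kilobase of GENCODE 44 exon. LINC00888 (36.3 CPM per kb), LINC00680 (33.1), LINC00973 (32.5), LINC00674 (27.1), LINC01145 (15.6) and LINC01605 (9.77, for the longer of its 2 gene entries) led. LINC00888, LINC00680, LINC00674 and LINC01145 are of a pseudogene biotype with annotated exons of 421, 181, 160 and 143 bases, of which 331, 181, 156 and 143 are shared with another entry on the same strand. The files were counted on another Ensembl release whose exon models may differ, so these 4 values per kb are uncertain. Among genes of the lncRNA biotype LINC00973 stood highest and the median was 0.518 CPM per kb.

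LINC00973 was at 32.7, 32.2 and 33.9 CPM at SC-0.77cP, at 27.4, 31.1 and 30.9 CPM at SC-8cP and at 31.4, 31.2 and 30.7 CPM in shTRPV4-8cP. The SC groups did not overlap, but the difference did not pass the test (log2 fold change -0.14 ± 0.06 SE, edgeR adjusted p = 0.0787). Of 22 LINC genes listed for a role known in cancer or development, 13 were among the 171. The others were either below the threshold (LINC01503 at 0.416 CPM and LINC00707 at 0.345 CPM were nearest, and LINC00941 had no count) or not analysed here.

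The first comparison asked which lincRNAs differ after 6 days at 8 cP from cells at 0.77 cP, both with the scramble RNA. The largest falls among the called genes were 1.96-fold, in LINC02725 and LINC03040, while the largest rise among the called genes, in LINC01224, was 1.29-fold. In bulk RNA, fewer cells of a type and less RNA per cell cannot be told apart. By edgeR's quasi-likelihood test at an adjusted p below 0.05, 20 of the 171 were called (11.7%), 7 higher and 13 lower at SC-8cP. Over all 18264 genes tested 19.3% were called, 9.57% higher and 9.69% lower. The median log2 fold change was -0.02 over the lincRNAs and -0.01 over all genes, and the median absolute value was 0.17 and 0.15. By level, 6 of 98 genes under 2 CPM were called beside 8.99% of all tested genes of that band, 8 of 54 from 2 to 10 CPM beside 19.7%, and 6 of 19 at 10 CPM or more beside 27.9%. At an unadjusted p below 0.05 there were 39, and the share of all genes at that level was not taken.

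**Figure D1:**
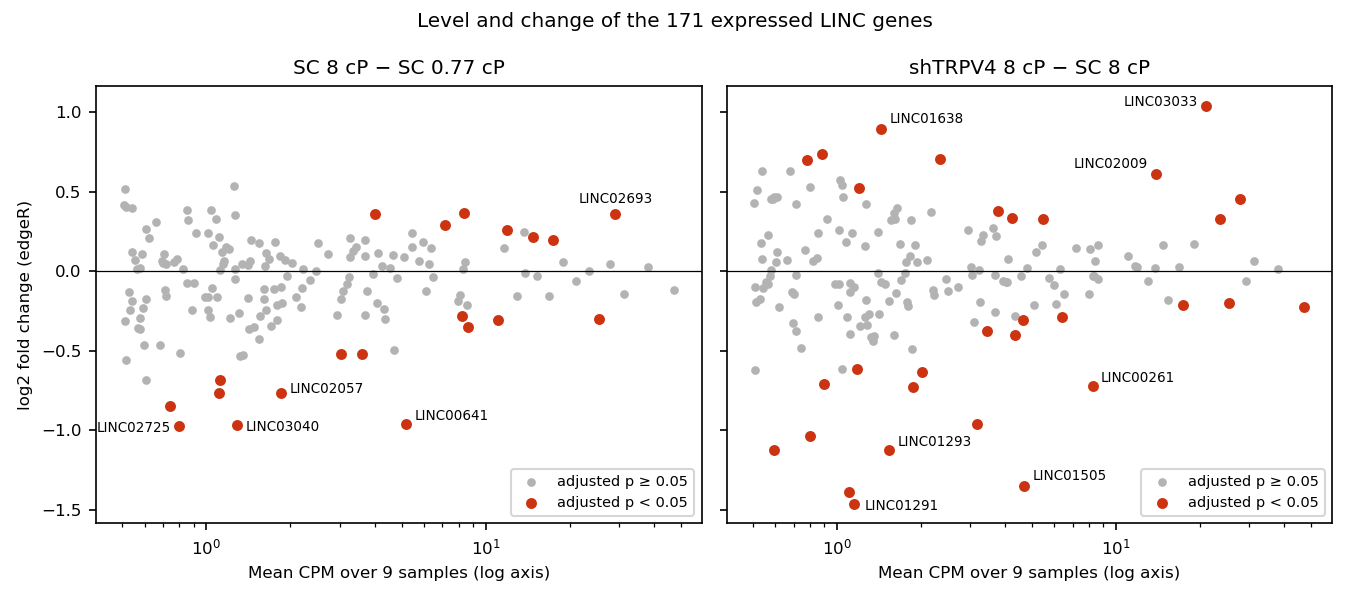
Each point is 1 of the 171 genes, with its mean CPM over the 9 samples on a log axis and its edgeR log2 fold change for viscosity (left) and for the hairpin at 8 cP (right), red where adjusted p was below 0.05. Called genes span the whole range of levels, with 20 on the left and 31 on the right, and the changes furthest from 0 are mostly of genes at low level, LINC03033 being an exception.

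LINC00641, on chromosome 14 (21200079 to 21206900, minus strand), had the smallest adjusted p. It was at 8.91, 6.98 and 6.70 CPM at SC-0.77cP and at 4.19, 3.37 and 4.03 CPM at SC-8cP, so that every sample at the higher viscosity lay below every sample at the lower. The log2 fold change was -0.96 ± 0.12 (adjusted p = 7.42e-05). The shTRPV4-8cP samples stood at 4.0, 4.25 and 4.34 CPM, and their difference from SC-8cP did not pass (0.12 ± 0.12, adjusted p = 0.538).

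LINC02057 stood at 2.34, 2.56 and 2.28 CPM at SC-0.77cP and at 1.55, 1.35 and 1.31 CPM at SC-8cP, again without overlap (-0.77 ± 0.15, adjusted p = 0.00334). LINC00511, an oncogenic lincRNA of the SOX9 region that is raised in breast cancer, was at 30.8, 30.6 and 29.6 CPM at SC-0.77cP. At SC-8cP it was at 25.4, 25.4 and 23.1 CPM (-0.30 ± 0.05, adjusted p = 0.00238). LINC00641, LINC02057, LINC00511 and LINC02693 kept their calls when any 1 of the 9 samples was left out.

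LINC02693, on chromosome 17 in a duplicated region near KCNJ18, rose. It was at 23.5, 23.6 and 27.5 CPM at SC-0.77cP and at 31.2, 31.2 and 33.6 CPM at SC-8cP (0.36 ± 0.07, adjusted p = 0.00304). Its reads could be split with near-identical copies. LINC01224, LINC02331, LINC01444 and LINC00857 rose by 0.36, 0.36, 0.29 and 0.26 on the log2 scale, with adjusted p from 0.0244 to 0.0455. LINC00857, which starts 1800 bases from ANXA11, is a lincRNA with a reported growth-promoting role in several cancers, and its groups did not overlap.

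LINC02725, LINC03040 and LINC01355 fell by 0.97, 0.97 and 0.85 on the log2 scale (adjusted p = 0.0103, 0.0211 and 0.0274). LINC02725 went from 1.51, 1.57 and 1.03 CPM to 0.859, 0.611 and 0.606 CPM. LINC03040 went from 2.60, 2.10 and 1.38 CPM to 1.22, 1.11 and 0.760 CPM, and LINC01355 from 1.52, 0.967 and 0.933 CPM to 0.667, 0.621 and 0.617 CPM. In these 3 genes the SC groups did not overlap, although SC-0.77cP replicate 3 stood low in LINC03040 and SC-0.77cP replicate 1 high in LINC01355. LINC00639 (-0.77 ± 0.21, adjusted p = 0.0185) and LINC00261 (-0.28 ± 0.08, adjusted p = 0.0293) fell as well and return below.

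The viscosity calls depended on single libraries. Without SC-0.77cP replicate 1, 6 genes were called, without SC-0.77cP replicate 2, 9 genes, and without SC-8cP replicate 3, 7 genes, and the share called over all genes was then 7.58%, 10.3% and 7.56% in that order. Of the 20 calls, 6 held in each of the 9 leave-one-out fits. Without SC-0.77cP replicate 1 the adjusted p was 0.0615 for LINC02725, 0.140 for LINC03040, 0.186 for LINC01355, 0.153 for LINC01224, 0.0903 for LINC02331, 0.0860 for LINC01444, 0.107 for LINC00857, 0.0672 for LINC00639, 0.0962 for LINC00261 and 0.109 for LINC01116. These 10 genes also lost their call without at least 1 other library, with adjusted p up to 0.205.

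The second comparison asked what the TRPV4 hairpin changed at 8 cP, as shTRPV4-8cP minus SC-8cP. Under 2 CPM the median absolute log2 fold change of the lincRNAs was 0.270, beside 0.198 for viscosity. Over all tested genes of that band it was 0.230 in both comparisons. For the lincRNAs from 2 to under 10 CPM it was 0.148 for the hairpin and 0.147 for viscosity. At 10 CPM or more it was 0.163 and 0.147. LINC03033 rose 2.05-fold and LINC02009 1.53-fold, and LINC01291, LINC00639, LINC01505, LINC01293, LINC02562 and LINC02725 fell by more than 1 on the log2 scale. Of the 171 genes 31 were called (18.1%), 12 higher and 19 lower, beside 20.0% of all tested genes, 9.02% higher and 11.0% lower. The median log2 fold change was -0.03 over the lincRNAs and 0.00 over all genes, and the median absolute value 0.21 and 0.15. By level, 12 of 98 genes under 2 CPM were called beside 13.2% of all tested genes of that band, 12 of 54 in the middle band beside 24.3%, and 7 of 19 at 10 CPM or more beside 26.7%. At an unadjusted p below 0.05 there were 58. A change of 1 or more on the log2 scale, in either direction, was reached by 7 called genes, and by 0 for viscosity. The matching shares of all genes were not taken, so these counts are not set against a background.

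**Figure D2:**
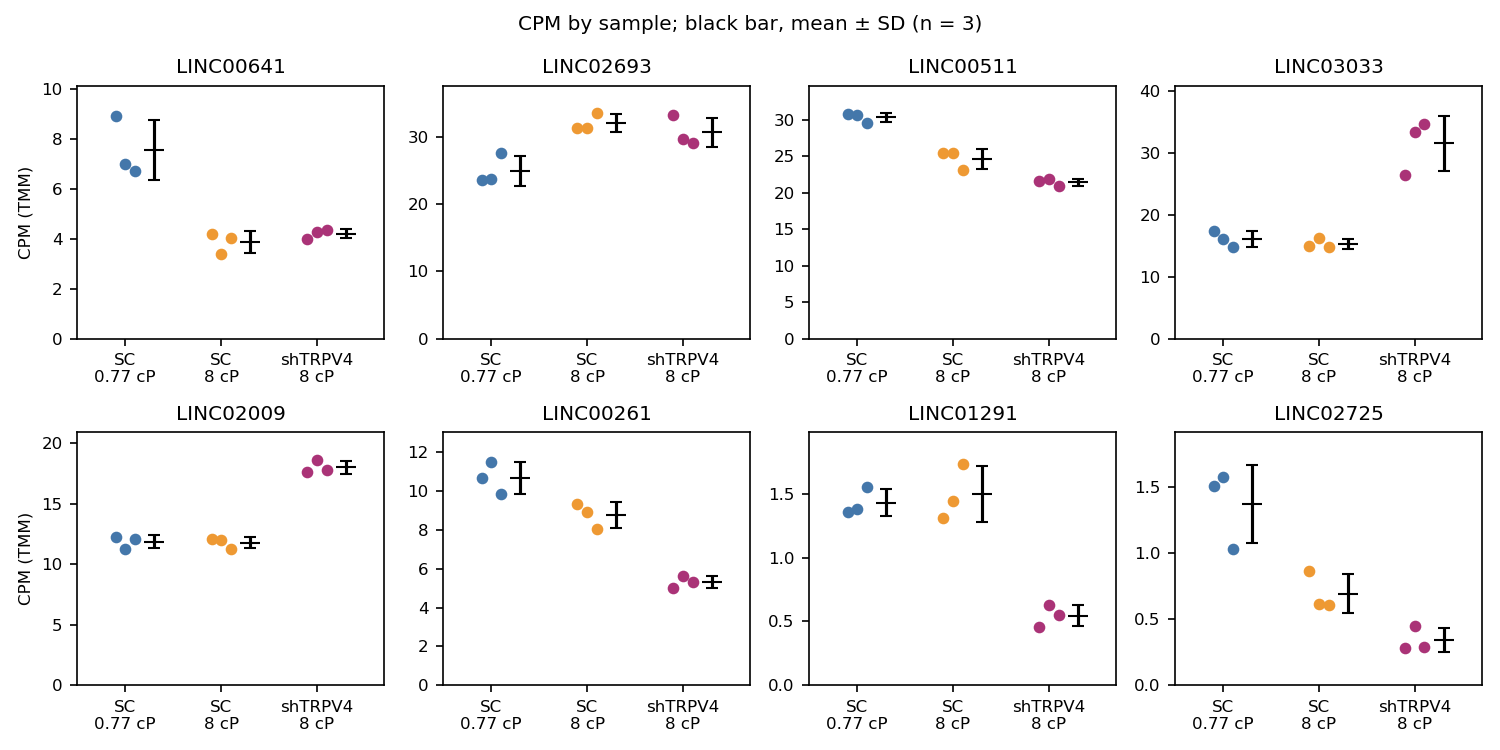
Each panel shows the TMM-scaled CPM of 1 gene in the 9 samples (points, coloured by group) with the group mean ± SD (black, n = 3), on an axis from 0. LINC00641 and LINC00511 fell and LINC02693 rose between the SC groups, while LINC03033 and LINC02009 rose, and LINC00261, LINC01291 and LINC02725 fell, in the shTRPV4-8cP samples.

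LINC03033, on chromosome 14 (61570405 to 61658696, plus strand), had the smallest adjusted p of all 171. It was at 15.0, 16.2 and 14.8 CPM at SC-8cP and at 26.4, 33.4 and 34.7 CPM in shTRPV4-8cP, with a log2 fold change of 1.04 ± 0.09 (2.05-fold, adjusted p = 1.72e-06). The SC-0.77cP samples lay at 17.3, 16.0 and 14.7 CPM, overlapping the SC-8cP samples. It shares 360 of its 2861 exon bases with an unnamed gene on its strand and 168 with LINC01303 on the other.

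LINC02009 starts 16425 bases from CCRL2, a chemokine-like receptor that binds chemerin. It was at 12.1, 12.0 and 11.3 CPM at SC-8cP and at 17.6, 18.6 and 17.8 CPM in shTRPV4-8cP (0.61 ± 0.06, adjusted p = 8.55e-06). SC-0.77cP samples were at 12.2, 11.3 and 12.0 CPM, so the SC groups overlapped and the hairpin samples stood apart. LINC01638, which has been tied to mesenchymal traits in triple-negative breast cancer, was at 1.11, 1.28 and 1.08 CPM at SC-8cP and at 2.27, 1.90 and 2.28 CPM in shTRPV4-8cP (0.89 ± 0.15, adjusted p = 0.000702). LINC00842, in a duplicated region of chromosome 10 where reads can match several copies, rose by 0.71 ± 0.11 (adjusted p = 0.000401).

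Both gene entries of LINC01605 rose, from 21.4, 21.3 and 22.3 CPM to 26.9, 26.5 and 28.0 CPM for the longer one (0.32 ± 0.05, adjusted p = 0.000575). The shorter entry rose by 0.33 (adjusted p = 0.0305), a call kept in 5 of the 9 leave-one-out fits. Their spans overlap on the same strand, so they are not independent. LINC02904 and LINC02873 completed the 5 largest rises with LINC03033, LINC01638 and LINC00842, by 0.74 and 0.70 on the log2 scale (adjusted p = 0.0146 and 0.0378). LINC00472, whose higher level has been tied to a better outcome in breast cancer, was at 23.8, 24.5 and 26.9 CPM at SC-8cP and at 33.8, 36.2 and 32.8 CPM in shTRPV4-8cP (0.45 ± 0.07, adjusted p = 0.000385). It was named after its values were seen.

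Among the falls, LINC01291 and LINC01293 are neighbours on chromosome 2, on the same strand and 1840 bases apart. LINC01291 was at 1.31, 1.45 and 1.74 CPM at SC-8cP and at 0.458, 0.626 and 0.553 CPM in shTRPV4-8cP (-1.46 ± 0.18, adjusted p = 5.37e-05). LINC01293 was at 2.08, 1.94 and 1.91 CPM and at 0.961, 1.01 and 0.752 CPM (-1.12 ± 0.16, adjusted p = 0.000143). In both, the SC-0.77cP samples overlapped the SC-8cP samples.

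LINC00261, a lincRNA of endoderm that lies beside the pioneer factor gene FOXA2, fell in 2 steps. It was at 10.7, 11.5 and 9.86 CPM at SC-0.77cP, at 9.34, 8.92 and 8.06 CPM at SC-8cP and at 5.01, 5.63 and 5.33 CPM in shTRPV4-8cP, with no overlap between any groups. The hairpin difference was -0.72 ± 0.09 (adjusted p = 3.59e-05). LINC00639 was at 1.80, 1.93 and 1.80 CPM, then at 1.25, 0.932 and 1.06 CPM, then at 0.240, 0.447 and 0.553 CPM. Its hairpin difference was -1.39 ± 0.24 (adjusted p = 0.000811).

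LINC01505 was at 5.88, 5.46 and 3.75 CPM at SC-8cP and at 1.16, 2.16 and 2.62 CPM in shTRPV4-8cP (-1.35 ± 0.22, adjusted p = 0.000484). LINC02562 was at 0.617, 0.673 and 0.617 CPM and at 0.317, 0.256 and 0.299 CPM (-1.12 ± 0.25, adjusted p = 0.00582). LINC02725, whose promoter window holds AP-1 and TEAD letters, was at 0.284, 0.447 and 0.288 CPM in shTRPV4-8cP, below all SC samples (-1.04 ± 0.27, adjusted p = 0.0124). LINC01929, also shown with an AP-1 match, fell by 0.63 on the log2 scale (adjusted p = 0.0106), and LINC02009 with the same letters rose. LINC01929 lost its call without SC-8cP replicate 1 (0.0711).

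LINC01116, a lincRNA on chromosome 2 beyond the HOXD cluster, was highest at SC-8cP. It was at 15.9, 16.8 and 17.3 CPM at SC-0.77cP, at 19.2, 18.9 and 19.2 CPM at SC-8cP and at 16.5, 16.1 and 16.8 CPM in shTRPV4-8cP. The SC-8cP samples overlapped neither other group, and the 2 differences, 0.20 ± 0.06 (adjusted p = 0.0258) and -0.22 ± 0.06 (adjusted p = 0.0156), share them. Between shTRPV4-8cP and SC-0.77cP the difference was -0.02 ± 0.06 (adjusted p = 0.841). LINC00511 fell for both, and the hairpin difference was -0.20 ± 0.06 (adjusted p = 0.0177). LINC00324, near AURKB, fell by 0.73 on the log2 scale (adjusted p = 0.0348).

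Other lincRNAs with a known role did not pass in either comparison. LINC00467, which encodes a mitochondrial micropeptide, was between 14.6 and 18.6 CPM in all samples, and LINC00665, which also encodes a micropeptide, between 7.92 and 9.37 CPM. LINC00460, LINC00662, LINC00847, LINC00963 and LINC01128 did not pass either.

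Leaving out 1 library moved the hairpin count of 31 to 16 without SC-8cP replicate 1, to 19 without SC-8cP replicate 2 and to 19 without shTRPV4-8cP replicate 2, with 12.6%, 11.7% and 13.4% of all genes called. Calls of 13 genes held in each of the 9 fits, among them LINC03033, LINC02009, LINC01638, LINC00842, LINC00261, LINC01291, LINC01293, LINC00639, LINC01505 and LINC02562. Without SC-8cP replicate 1 the adjusted p was 0.0658 for LINC02725, 0.0768 for LINC00511, 0.158 for LINC02873, 0.0559 for LINC01116 and 0.0668 for LINC00324. LINC02904 lost its call without SC-8cP replicate 2 (0.0773) or shTRPV4-8cP replicate 2 (0.0682). LINC00511, LINC02873, LINC01116 and LINC00324 lost it without other libraries too, with adjusted p up to 0.142 for LINC00324.

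**Figure D3:**
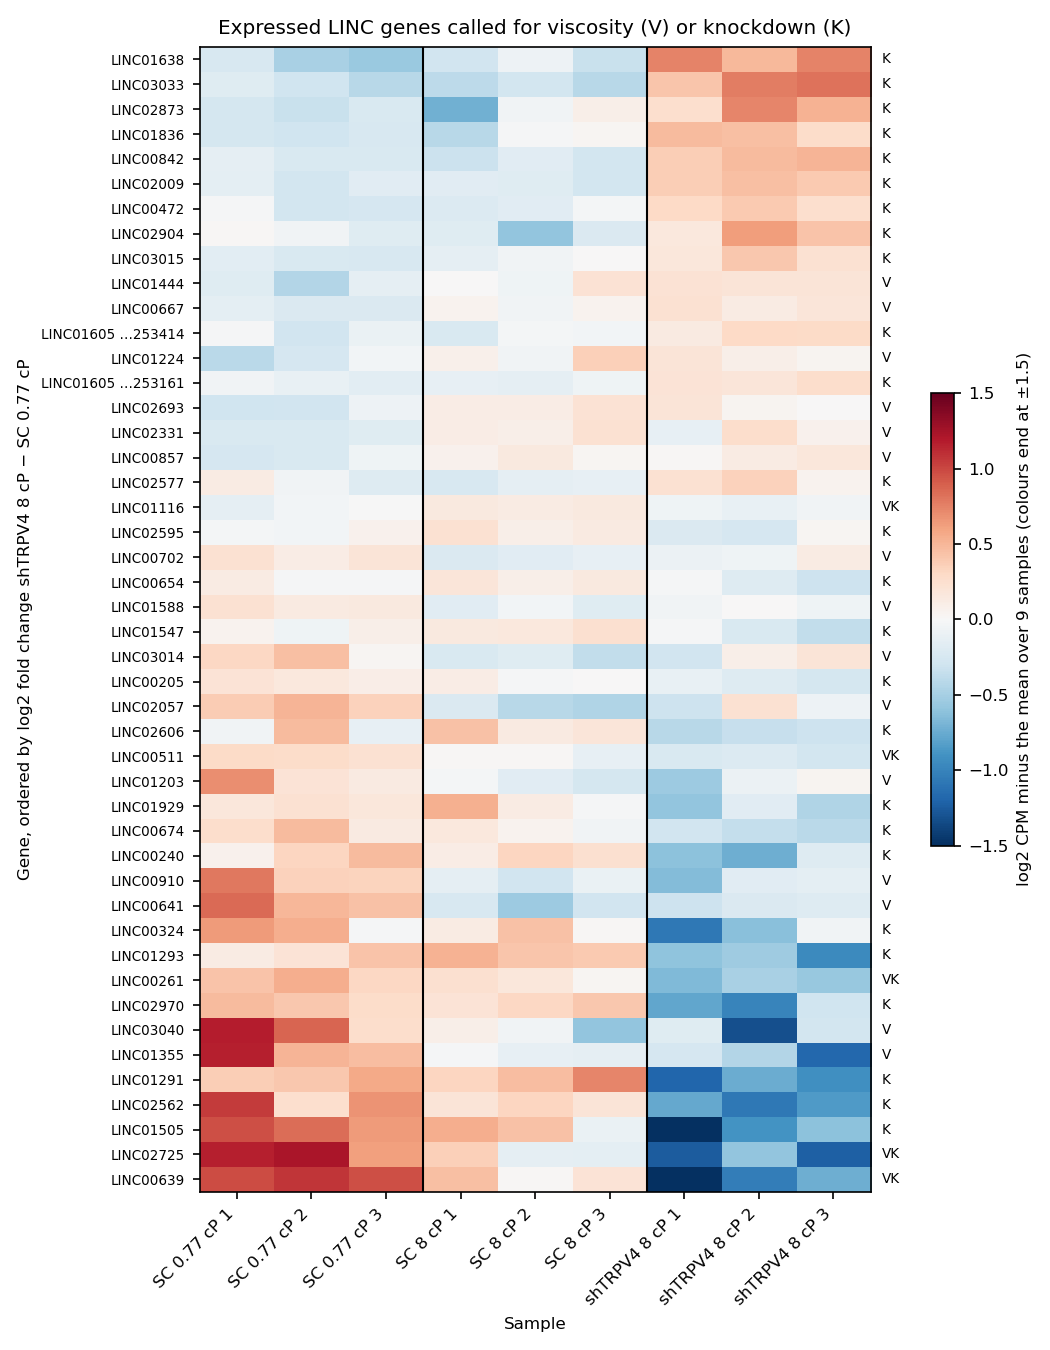
Rows are the 46 genes called for viscosity (V) or the hairpin (K), columns the 9 samples, and colour gives log2 CPM minus the mean of the gene over the 9 samples, ending at 1.5 either way. LINC00639 and LINC02725 at the bottom fade from SC-0.77cP through SC-8cP to shTRPV4-8cP. Not all lower rows do so, as LINC01291 is low in shTRPV4-8cP alone and LINC00641 in both groups at 8 cP. LINC01638 and LINC03033 at the top are high in shTRPV4-8cP alone.

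The third comparison, shTRPV4-8cP minus SC-0.77cP, differs in both hairpin and viscosity, whose parts cannot be told apart in it. It called 75 of the 171 genes (43.9%), 32 higher and 43 lower, beside 42.4% of all tested genes, 20.4% higher and 22.0% lower. By level 40 of 98, 22 of 54 and 13 of 19 genes were called, beside 29.0%, 46.9% and 56.9% of all tested genes in the 3 bands. The median log2 fold change was -0.03 over the lincRNAs and -0.01 over all genes, and the median absolute value 0.28 and 0.23. Without SC-0.77cP replicate 1 the number of lower genes was 28.

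The lowest were LINC00639 (-2.16 ± 0.23, adjusted p = 3.88e-06), LINC02725 (-2.01 ± 0.26, 1.84e-05), LINC01505 (-1.85 ± 0.22, 8.39e-06), LINC02562 (-1.59 ± 0.25, 0.00012) and LINC01291 (-1.40 ± 0.18, 2.45e-05). LINC00261 had the smallest adjusted p, at -1.0 ± 0.09 (4.10e-07). The highest were LINC01638 (1.09 ± 0.15, adjusted p = 4.98e-05), LINC03033 (0.97 ± 0.09, 1.02e-06), and LINC00996 (0.92 ± 0.21, 0.00237), leaving out genes that met the level threshold through 1 group alone. LINC00997 went from 0.477, 0.249 and 0.369 CPM to 0.797, 0.703 and 0.785 CPM, and LINC02966 from 0.350, 0.359 and 0.389 CPM to 0.775, 0.703 and 0.597 CPM. LINC00997 and LINC02966 passed the level threshold only through shTRPV4-8cP, the group in which they are high, so their differences are given as a description, although they are in the count of 75. LINC01572 passed the threshold through the same group, was called higher and is in that count too. The difference of LINC00996 from SC-8cP did not pass (0.54 ± 0.20, adjusted p = 0.0773, and 0.0498 in a fit of those 6 samples alone), nor did that between the SC groups. In all, 84 of the 171 genes were called in at least 1 comparison and 87 in none. The matching share of all genes was not taken, and the third comparison alone called 42.4% of all tested genes.

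The opposite-strand pairs numbered 7. These pairs of the lincRNAs start within 5000 bases of each other on opposite strands, and their members did not share calls for viscosity or the hairpin. With 11.7% and 18.1% of the 171 genes called, shared calls would be rare among 7 pairs, so nothing is concluded from their absence. LINC03014 and LINC03015 on chromosome 7 start 22 bases apart, around the capitals in the window shown above. LINC03014 was at 4.40, 4.85 and 3.62 CPM at SC-0.77cP and at 3.03, 3.14 and 2.74 CPM at SC-8cP (-0.52 ± 0.14, adjusted p = 0.0151). LINC03015 was at 4.83, 4.61 and 4.56 CPM and at 4.92, 5.21 and 5.42 CPM (0.15 ± 0.09, adjusted p = 0.256). The log2 ratio of LINC03014 to LINC03015 lay between -0.33 and 0.07 in the SC-0.77cP samples and between -0.98 and -0.70 in the SC-8cP samples. The groups did not overlap, and the two-sided exact permutation test gave p = 0.1, the smallest that 3 against 3 allows. LINC03014 lost its call without SC-0.77cP replicate 1, SC-0.77cP replicate 2 or SC-8cP replicate 3 (adjusted p up to 0.0755).

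LINC03033 and LINC01303 on chromosome 14 start 248 bases apart, with overlapping first exons. LINC01303 stayed at 1.24 to 1.60 CPM in all samples (hairpin difference -0.07 ± 0.15, adjusted p = 0.792) while LINC03033 rose. Their log2 ratio was 3.31 to 3.44 at SC-8cP and 4.23 to 4.81 in shTRPV4-8cP (exact permutation p = 0.1, two-sided, again the smallest possible). Ratios were taken only for this pair and that of LINC03014 and LINC03015. In each, 1 gene was already called in the same samples and its partner was not, so the ratios are no further support for those calls. In the pair on chromosome 18, LINC00667 rose with viscosity (0.21 ± 0.06, adjusted p = 0.0276), and LINC00526 gave 0.04 (adjusted p = 0.906). LINC00667 lost its call without SC-0.77cP replicate 1 or 2 or SC-8cP replicate 1 or 3 (adjusted p up to 0.0952).

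**Figure D4:**
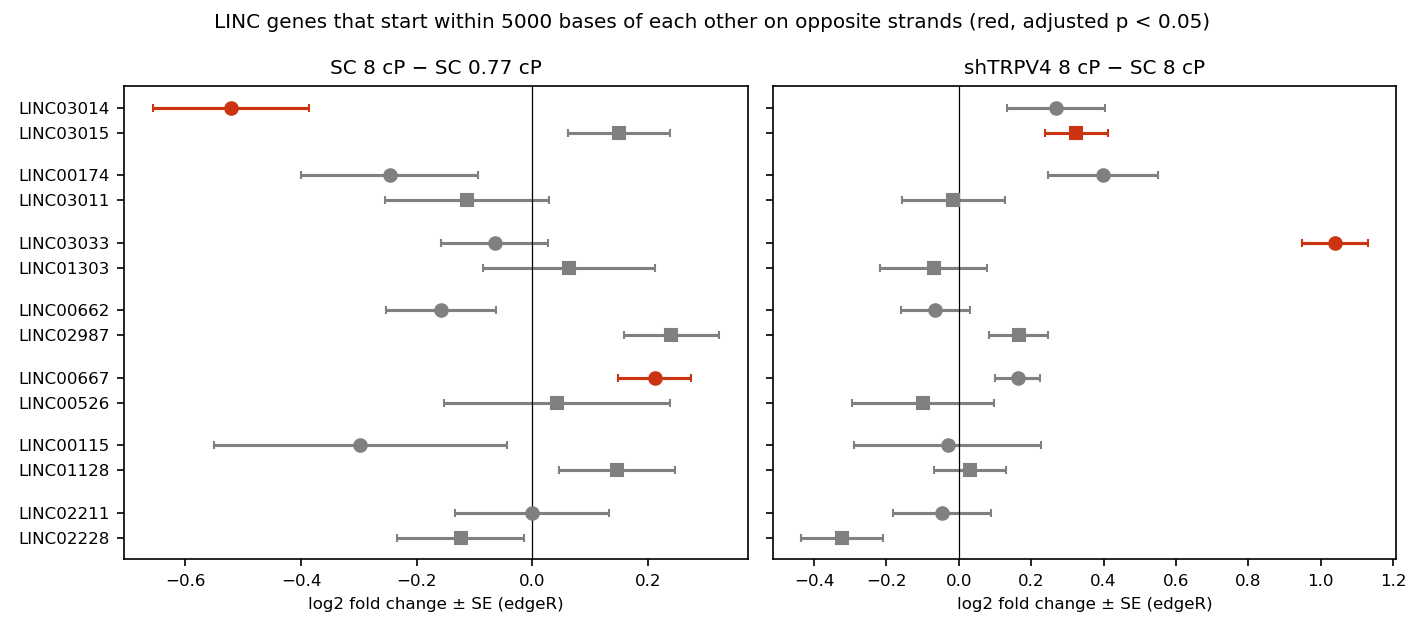
Points give the edgeR log2 fold change ± SE of the members of 7 pairs that start within 5000 bases of each other on opposite strands, for viscosity (left) and the hairpin at 8 cP (right), red where adjusted p was below 0.05. LINC03014 and LINC03015 lie on either side of 0 for viscosity, and LINC03033 lies far to the right of LINC01303 for the hairpin.

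The nearest protein-coding gene, by distance between starts, was itself tested for 134 of the 171 lincRNAs. With the hairpin, 29 of these lincRNAs were called, next to 27 distinct neighbours of which 10 were called too, beside 20.0% of all tested genes and 26.7% of those at 10 CPM or more. LINC00261 and FOXA2, 6813 bases apart, both fell. FOXA2 was at 25.8 ± 1.35 CPM at SC-8cP and 18.8 ± 0.827 CPM in shTRPV4-8cP (SD, n = 3), a log2 fold change of -0.45 ± 0.06 (adjusted p = 5.88e-05). LINC02970 fell by 0.96 on the log2 scale (adjusted p = 0.00027), and SLCO4A1, an organic anion transporter 39148 bases away, fell by 0.59 (adjusted p = 0.000274).

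LINC02562 and PARM1, a mucin-like membrane protein gene 151622 bases away, fell by 1.12 each on the log2 scale. LINC02009 and CCRL2 rose, the latter by 0.28 ± 0.05 (adjusted p = 0.00118), as did LINC00842 and ANXA8L1, the latter by 0.67 ± 0.15 (adjusted p = 0.00631). POLE4, a subunit of DNA polymerase epsilon and the neighbour of both LINC01291 and LINC01293, fell by 0.19 (adjusted p = 0.0185), a call lost without SC-8cP replicate 2 or 3 or shTRPV4-8cP replicate 1 or 2 (up to 0.0903). LINC03015 rose while FAM20C, a secretory-pathway kinase, fell by 0.34 (adjusted p = 0.00631). The rise of LINC03015 was lost without SC-8cP replicate 1 or 2 or shTRPV4-8cP replicate 2 (adjusted p up to 0.0896). TMEM38B next to LINC01505 gave 0.05 ± 0.06 (adjusted p = 0.668).

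Over the 134 pairs the hairpin log2 fold changes of lincRNA and neighbour had a Pearson correlation of 0.269. It was 0.308 over the 84 pairs within 100000 bases and 0.560 over the 19 pairs within 10000 bases. The rank (Spearman) correlation was 0.267, 0.358 and 0.344 in that order. By rank it was thus no higher within 10000 bases than within 100000. In the 19 closest pairs 3 lincRNAs were called for the hairpin, 1 of them with its neighbour. For viscosity the Pearson values were 0.124, 0.0792 and 0.468. The rank values for viscosity were 0.0760 within 100000 bases and 0.353 within 10000. These are descriptions across genes, which share libraries and in a few cases a neighbour. For viscosity 3 neighbours of the 16 called lincRNAs with a tested neighbour were called, beside 19.3% of all tested genes. Among them were SLC39A11 next to LINC00511, lower like the lincRNA by 0.27 on the log2 scale, and HNRNPR next to LINC01355, higher by 0.18 while the lincRNA fell. The calls of SLC39A11 and HNRNPR were lost without SC-8cP replicate 3 (adjusted p = 0.0687 and 0.0893) and without SC-0.77cP replicate 2 (0.0582 and 0.0576).

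**Figure D5:**
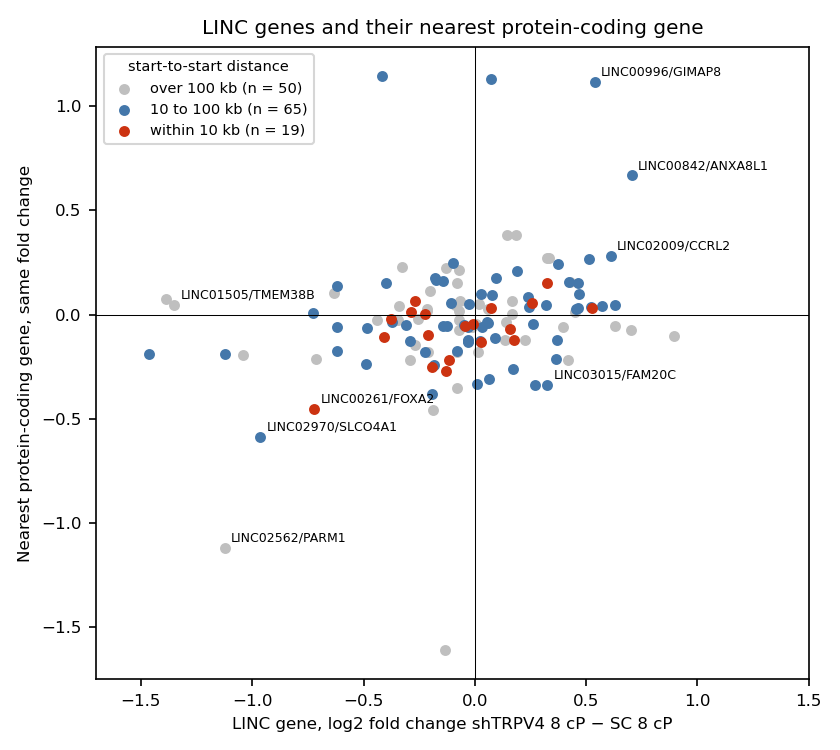
Each point is 1 of 134 lincRNAs (horizontal axis, log2 fold change shTRPV4-8cP minus SC-8cP) against its nearest protein-coding gene (vertical axis, same scale), coloured by the distance between their starts. LINC00261 with FOXA2, LINC02970 with SLCO4A1 and LINC02562 with PARM1 lie at the lower left, while LINC01505 with TMEM38B and LINC03015 with FAM20C lie off the diagonal.

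Long non-coding RNAs outside the LINC numbering gave a frame for these changes. Of 13 genes that once had a LINC number and now have a name, 10 were tested. None was called for viscosity by edgeR, CHASERR alone was called for the hairpin (-0.42 ± 0.11, adjusted p = 0.0150, 0.0508 by DESeq2 and 0.0717 without SC-8cP replicate 2), and 5 fell in the third comparison, in which 22.0% of all tested genes were lower. NORAD, an abundant cytoplasmic lincRNA that binds PUMILIO proteins, was between 468 and 526 CPM in all samples.

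Of 40 other well-known long non-coding RNAs 31 were tested, and 13 were called for viscosity, 4 higher and 9 lower. The median log2 fold change was -0.16. Of all tested genes 19.3% were called, and of those at 10 CPM or more 27.9%. The listed RNAs range widely in level, and shares matched by level were not taken for them. NEAT1, the scaffold of paraspeckles, was at 158, 115 and 88.4 CPM at SC-0.77cP and at 64.0, 61.7 and 50.3 CPM at SC-8cP (-1.04 ± 0.15, adjusted p = 0.000489). MALAT1, of nuclear speckles, fell by 0.82 (adjusted p = 0.00332), and KCNQ1OT1, the antisense RNA of an imprinted domain, by 1.43 (adjusted p = 0.000284). For the hairpin 9 were called, 5 higher and 4 lower, beside 20.0% of all tested genes and 26.7% of those at 10 CPM or more. NR2F1-AS1 was lower by 0.60 (adjusted p = 0.000158) and UCA1 higher by 0.58 (adjusted p = 0.00311). NEAT1, which fell with viscosity, was higher with the hairpin by 0.55 ± 0.15 (adjusted p = 0.0194). That call was lost in 3 of the 9 leave-one-out fits, and by DESeq2 the adjusted p was 0.0692. MIR17HG, host of an oncogenic microRNA cluster, rose in both, by 0.90 for viscosity (adjusted p = 0.0148) and 0.90 for the hairpin (adjusted p = 0.00644). The viscosity call of MIR17HG was lost without SC-0.77cP replicate 1 (0.0509) or SC-8cP replicate 3 (0.0744).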

How the data were processed

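RNA-seq of 9 MDA-MB-231 samples (3 per group) was analysed. The authors deposited counts per gene: per the labels and the study's methods, stranded poly(A) libraries were aligned with HISAT2 2.2.1 to GRCh38.p13 and exon reads counted with HTSeq 0.13.5. The strand setting of the counting is not given in the sources used here. Positions and exon lengths came from GENCODE 44. One edgeR 4.0.16 quasi-likelihood model (R 4.3.3, limma 3.58.1, TMM scaling, filterByExpr, no covariates) was fitted to all samples over 18264 genes, and p-values were adjusted by Benjamini-Hochberg over all of them, with calls below 0.05. All 171 selected genes passed the filter. The fit was also run on simulated data with fewer changed genes and larger changes than most of those measured. That run does not bear on small changes. The genes and lists were chosen with earlier results of these data known. Named genes were the 6 highest per kb, the 5 largest rises and falls and the 4 smallest adjusted p per comparison, genes with a known role and those nearest the threshold. Others were named after their values were seen. Some genes are not reported here. Alternatives were DESeq2 1.42.0, upper quartile scaling, no filter, 6-sample fits, a replicate block, a threshold of 1 CPM and leaving out each sample.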

Additional observations from a re-analysis of the deposited data

How the results depend on the processing

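Fits by DESeq2, with upper-quartile factors, without the low-count filter, on 6 samples or with the replicate block each left all counts of called lincRNAs within 1.5 times the values given. DESeq2 also called 20 of 20, 31 of 31 and 72 of 75 genes for viscosity, the hairpin and both together. Same-numbered samples had correlations of deviations between -0.055 and 0.090 over all genes tested. The deviations are from means of 3 samples, so they cannot show whether the numbers pair the samples. The replicate block moved the hairpin adjusted p (edgeR) of NEAT1 from 0.0194 to 0.000745 and that of MALAT1 from 0.202 to 0.0293. By DESeq2 these adjusted p were 0.0692 for NEAT1 and 0.426 for MALAT1, so neither passed. With the replicate block 19, 31 and 72 genes were called, and LINC00324 lost its hairpin call (adjusted p = 0.0598). LINC01444 lost its viscosity call under upper quartile scaling and in the 6-sample fit, LINC01116 its viscosity call with no filter, and LINC02873 its hairpin call in the 6-sample fit, in which LINC00996 gained one. LINC01505 gained a viscosity call with no filter and in the 6-sample fit. With a threshold of 1 CPM the median log2 fold change of the third comparison was -0.056.

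Leaving out 1 library moved the viscosity count between 6 and 27 (higher 1 to 11, lower 5 to 16), the hairpin count between 16 and 34 (higher 6 to 13, lower 8 to 21) and the count of the third comparison between 54 and 73 (higher 23 to 33, lower 28 to 40). Of those, 6, 16 and 54 came without SC-0.77cP replicate 1, SC-8cP replicate 1 and SC-0.77cP replicate 1. The median log2 fold change ranged from -0.042 to 0.0076 for viscosity, where it turned positive without SC-0.77cP replicate 1, from -0.034 to -0.011 for the hairpin and from -0.077 to -0.021 for the third comparison. These fits have fewer samples, and the cause of the shifts was not tested. Depth limits the 98 genes under 2 CPM, and the median SE over the lincRNAs was 0.15 to 0.16, beside 0.08 over all genes.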
